A study of Mus musculus with 8 samples.

Results

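The transcripts of 10 ligands of the tumor necrosis factor (TNF) family were followed through splenic conventional CD4+ T cells (Tconvs) and regulatory T cells (Tregs) of CD70 transgenic mice. The ligands were *Cd70*, *Tnf*, *Lta*, *Ltb*, *Fasl*, *Tnfsf8*, *Tnfsf10*, *Tnfsf11*, *Tnfsf14* and *Cd40lg*, taken by gene name from the 52636 rows of the deposited table, in which all 10 were found. Of these, 9 reached the minimum value for a test, and *Cd70* did not.

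The study asked how lasting engagement of CD27, the receptor of CD70, changes both CD4+ subsets. Tconvs (Foxp3-) and Tregs (Foxp3+) were sorted, 200000 cells a sample, from the spleens of Foxp3-eGFP reporter mice aged 6 to 8 weeks, and the RNA of the sorted cells was sequenced. Per the study's methods, the antibodies for depletion before the sort held anti-CD25 for Tconvs but not for Tregs. Comparisons of Tregs with Tconvs thus also hold this difference in preparation, whose part was not tested. CD70Tg mice were CD11c-*Cd70*tg;CD27+/-, and control mice were CD27+/- without the transgene, so that both genotypes carried only 1 functional copy of the gene for CD27. Each of the 4 groups had 2 libraries. The transgene is driven by the CD11c promoter, which is active mainly in dendritic cells, and 2 libraries a group give only a rough estimate of the spread. The control columns are named KO in the deposited table, WT in the sample descriptions and CD27+/- in the methods, and were taken as the CD27+/- controls. No source says whether the libraries of a group came from separate animals, so that p-values measure the spread between libraries, which may be technical.

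Ligands of the TNF family are trimers, mostly anchored in the membrane of the cell that makes them, and they signal by clustering trimeric receptors on a neighbouring cell. Some receptors, such as CD27, CD40, CD30 and TNFR2, recruit adaptor proteins that activate NF-kB and favour survival and differentiation, whereas Fas and the TRAIL receptor hold a death domain and can start apoptosis. In CD4+ T cells the ligands carry help to B cells and dendritic cells (CD40L), organise lymphoid tissue (lymphotoxins), kill activated cells (FasL, TRAIL) and costimulate other T cells (LIGHT, CD30L, CD70).

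The deposited values are reads per 20 M reads, rounded up, so that 20 stands for 1 read per M. Low values rose in steps the size of 1 read, which gave a depth of 6.94 to 33.28 M reads on genes in Tconvs and of 1.91 to 4.57 M in Tregs. A floor was set at 3 reads, which lay between 1.8 and 8.6 in Tconvs and between 13.1 and 31.3 in Tregs. The sort was checked on *Foxp3*, which was at 1039 to 1497 in the 4 Tconv libraries and at 19769 to 21367 in the 4 Treg libraries. The summed level of 5 T cell markers was 63226 to 98034 in all 8 libraries. Libraries of a group are named first and second in the order of the table, which pairs nothing.

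*Cd70*, the ligand encoded by the transgene, was at or near the floor in the control groups and low in the CD70Tg groups. In Tconvs it stood at 4 and 3 in the control libraries and at 15 and 28 in the CD70Tg libraries. In Tregs it was listed at 0 and 9 in the control libraries and at 11 and 44 in the CD70Tg libraries. The CD70Tg libraries lay above the control libraries in both subsets, but both control libraries of each subset and the first CD70Tg Treg library held 3 reads or fewer. In reads, the 2 Tconv groups held 51 (CD70Tg) and 4 (control), a ratio of rates of 9.22 with a 95% exact interval of 3.39 to 35.1. The 2 Treg groups held 9 and 2 reads, a ratio of 6.99 with an interval of 1.45 to 66.5. These intervals cover counting error only, and reads are not independent molecules. Most of the Tconv reads came from the second CD70Tg library, with 46 of the 51, and the depth of that library, the largest, was the least certain. The second CD70Tg library likewise held 8 of the 9 reads in CD70Tg Tregs. Without these libraries, a comparison added after the data were seen, the ratio was 5.24 in Tconvs (interval 1.13 to 26.4, 5 reads against 4) and 2.27 in Tregs (interval 0.0385 to 43.6, 1 read against 2). In a fit with no minimum value, *Cd70* was not called in Tconvs (log2 1.60, adjusted p = 0.501) or Tregs (log2 1.74, adjusted p = 0.291). The gene lies on chromosome 17 of mm10 (chr17:57145997-57149777, minus strand, GENCODE M21), and no exon of another gene overlaps it or any of the other ligands.

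Since the CD11c promoter drives the transgene, dendritic cell markers were set beside *Cd70*. All 7 listed dendritic cell markers were in the table, and their summed level was 76 and 147 in control Tconvs, 195 and 347 in CD70Tg Tconvs, 109 and 156 in control Tregs and 410 and 378 in CD70Tg Tregs. The sum was thus higher in the CD70Tg libraries of each subset, as was *Cd70*. *Itgax*, which encodes CD11c itself, was at 31 and 57 in control and at 101 and 236 in CD70Tg Tconvs. *Xcr1* was at 7 and 26 against 49 and 56 in Tconvs and at 10 and 18 against 63 and 33 in Tregs. *Zbtb46* was at 25 and 27 against 209 and 191 in Tregs. Not all markers followed. In Tconvs *Flt3* was at 13 and 17 against 12 and 7, *Siglech* at 6 and 28 against 0 and 3, and *Cd209a* at 4 and 9 against 0 and 2. *Itgax* in Tregs overlapped, at 49 and 84 against 74 and 104, and *Cd209a* was listed at 0 in both CD70Tg Treg libraries. Activated T cells can transcribe *Cd70* and *Itgax* themselves, and the part of dendritic cell RNA in the *Cd70* values was not tested. The cells were depleted with anti-CD11c and anti-MHCII antibodies before the sort.

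**Figure D1:**
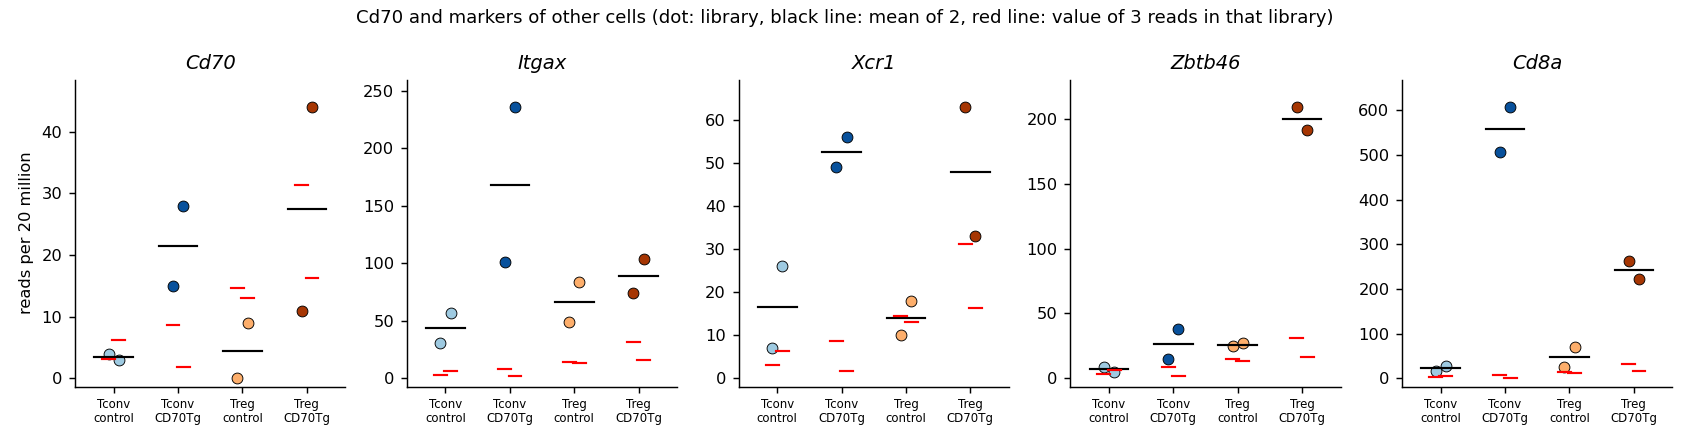
Reads per 20 M (linear axis) of Cd70, of the dendritic cell markers Itgax, Xcr1 and Zbtb46 and of Cd8a in each library, with a black line at the mean of 2 and a red line at the value of 3 reads in that library. Cd70 stayed at or below 44 in every library, and in Tregs 3 of the 4 dots lie at or under their red line.

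The transcript of the receptor of CD70 was abundant in both subsets. *Cd27* stood at 3239 and 2980 in control Tconvs, 3129 and 3359 in CD70Tg Tconvs, 5173 and 5543 in control Tregs and 6123 and 5894 in CD70Tg Tregs. Treg libraries lay above all Tconv libraries in both genotypes. The log2 difference between control Tregs and control Tconvs was 0.78 (95% interval 0.55 to 1.02), which has an adjusted p of 2.83e-05 in limma. The transgene was not accompanied by a detectable change of the transcript, with log2 fold changes of 0.06 in Tconvs (interval -0.17 to 0.29) and 0.17 in Tregs (interval -0.07 to 0.40). These values are of RNA, and the protein on the cells was not measured here. The paper states, without showing the data, that CD27 on all T lymphocytes was strongly lowered by its engagement.

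Levels of different ligands were compared per kb of exon. *Ltb* (chr17:35194439-35196320, plus strand), the membrane-anchored subunit of the lymphotoxin heterotrimer, was the most abundant ligand in each of the 4 groups, with a mean of 9790 per 20 M per kb in control Tconvs and 10400 in control Tregs. It made up 71.6% and 72.9% of the summed level of the 10 ligands in control Tconvs, and 91.0% and 90.2% in CD70Tg Tregs. In control Tconvs *Cd40lg* came next with 2190, followed by *Tnfsf8* with 332, *Tnfsf14* with 305, *Tnf* with 231, *Fasl* with 205, *Lta* with 199, *Tnfsf10* with 163, *Tnfsf11* with 128 and *Cd70* with 4.16. From *Tnfsf8* down to *Lta*, the 2 libraries of each gene overlapped those of the next, as did those of *Tnfsf10* and *Tnfsf11*, so that the order among these neighbours is not resolved. In control Tregs the order below *Ltb* was *Tnf* with 499, *Lta* with 447, *Tnfsf10* with 379, *Cd40lg* with 292, *Tnfsf11* with 272, *Tnfsf8* with 138, *Tnfsf14* with 67.4, *Fasl* with 51.4 and *Cd70* with 5.34. There, *Cd40lg* overlapped *Tnfsf11*, and *Tnfsf14* overlapped *Fasl*. In CD70Tg Tconvs *Fasl* ranked 4 with 426 and *Tnfsf10* ranked 5 with 327, and in CD70Tg Tregs *Tnfsf10* ranked 2 with 407 and *Cd40lg* ranked 6 with 120. *Tnfsf10* overlapped the next gene in both of these groups, as did *Cd40lg* in CD70Tg Tregs.

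**Figure D2:**
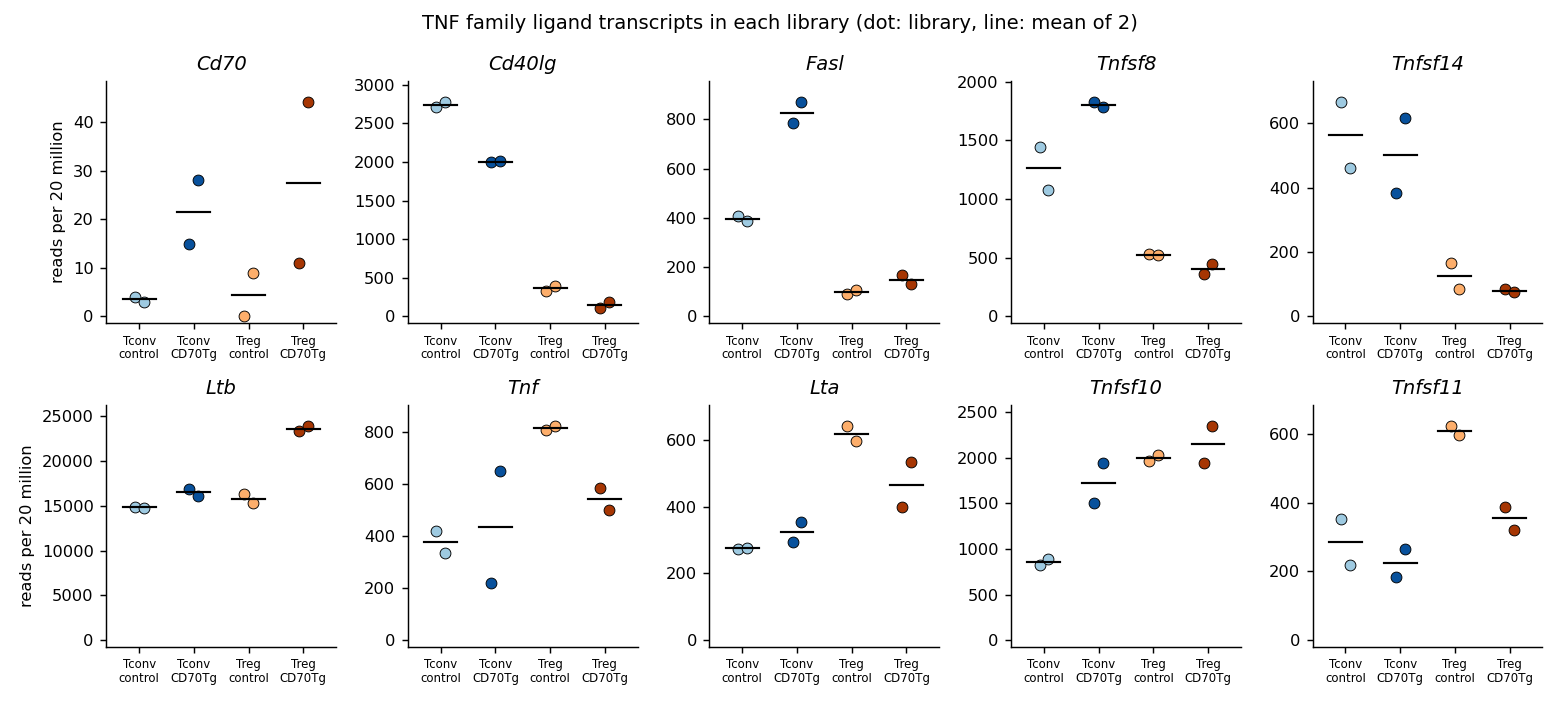
Reads per 20 M (linear axes from 0, a scale for each gene) of the 10 ligands in each of the 8 libraries, with a line at the mean of 2. The upper row holds Cd70 and the ligands higher in Tconvs (Cd40lg, Fasl, Tnfsf8, Tnfsf14), and the lower row Ltb and the ligands higher in control Tregs (Tnf, Lta, Tnfsf10, Tnfsf11).

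The promoters of the 3 ligands that were higher in a CD70Tg subset at an adjusted p under 0.05 (*Ltb* in Tregs, *Fasl* and *Tnfsf10* in Tconvs, whose values are given with each comparison) are printed with their sequence upstream of the transcription start, to show which short motifs these genes hold close to it. The promoter table held 8 of the 10 ligands, all but *Cd70* and *Cd40lg*. Motifs were searched on both strands before each start given by RefSeq. They were NF-kB (GGGNNNNNCC, found in 45.8% of 32851 promoters), AP-1 (TGANTCA, 6.75%), T-box (GGTGTGA, 3.33%), the interferon-stimulated response element ISRE (GAAANNGAAA, 2.98%) and the STAT element GAS (TTCNNNGAA, 7.02%). These shares are from 250 bases a promoter. In the ligands only the bases that also lie before the GENCODE start were searched, which were 182 for *Ltb*, 250 for *Fasl* and 201 for *Tnfsf10*. Shorter windows can hold fewer matches. Capitals mark the matches, no 2 of which overlap in these promoters. Sequences are from RefSeq (GRCm38.p6), 5′ to 3′ on the strand of the gene, and end at the base before the first exon of GENCODE: *Ltb* at chr17:35194257-35194438 (plus strand), *Fasl* at chr1:161788496-161788745 (minus strand) and *Tnfsf10* at chr3:27316827-27317027 (plus strand).
Ltb: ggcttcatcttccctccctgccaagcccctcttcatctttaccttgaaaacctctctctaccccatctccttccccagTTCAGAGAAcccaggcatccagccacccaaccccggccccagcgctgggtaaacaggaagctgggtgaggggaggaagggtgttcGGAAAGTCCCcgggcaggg
Fasl: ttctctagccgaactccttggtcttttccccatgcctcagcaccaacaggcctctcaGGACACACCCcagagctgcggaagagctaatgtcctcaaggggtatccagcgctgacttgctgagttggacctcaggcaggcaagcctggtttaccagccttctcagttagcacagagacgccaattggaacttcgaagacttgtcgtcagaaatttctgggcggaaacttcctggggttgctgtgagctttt
Tnfsf10: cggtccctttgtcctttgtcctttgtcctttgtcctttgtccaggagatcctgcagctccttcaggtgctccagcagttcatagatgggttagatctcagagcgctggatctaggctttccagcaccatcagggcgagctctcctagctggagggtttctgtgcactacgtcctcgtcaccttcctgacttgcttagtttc
The *Ltb* promoter held an NF-kB match at position -87 and a GAS match at position -172 (TTCAGAGAA), counted from the RefSeq start. The *Fasl* promoter held an NF-kB match at position -193. Both NF-kB matches fit the stated letters on the strand opposite to the gene, and are printed as they read on the strand of the gene (GGAAAGTCCC and GGACACACCC). None of the 5 motifs was found in the 201 bases searched for *Tnfsf10*. NF-kB matches were also found for *Tnf*, *Lta*, *Tnfsf11* and *Tnfsf14*, and GAS matches for *Lta*. None of these ligands was higher in a CD70Tg subset at an adjusted p under 0.05. A match of this kind is a description of the letters, and NF-kB matches are common in promoters in general.

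The ligands were first compared between the subsets of control mice. A gene was called at an adjusted p under 0.05 (limma, Benjamini-Hochberg over 12816 genes) and an absolute log2 fold change over 1, on the scale of log2(value + 5). Of the 9 tested ligands, 4 were called higher in Tregs and 4 called lower, where 14.7% of all genes were called higher, 4.43% lower and 19.2% in either direction. Only *Ltb* among them was not called. At an unadjusted p under 0.05 there were 8 ligands, beside 52.9% of all genes, and limma-voom called 8, beside 19.4%. The libraries of the 2 subsets did not overlap for any of the 9, against 76.2% of all genes. The median log2 difference of the 9 was 0.09, beside 0.07 over all genes, with 4 ligands called on either side.

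*Cd40lg* (chrX:57212143-57224042, plus strand), which gives help to B cells and licenses dendritic cells through CD40, was at 2708 and 2771 in control Tconvs and at 335 and 395 in control Tregs. It was 7.44-fold lower in Tregs (log2 -2.90, SE 0.19, adjusted p = 5.73e-09). *Tnfsf14* (chr17:57189492-57194177, minus strand), encoding LIGHT, a costimulatory ligand of HVEM, was at 665 and 461 in Tconvs and at 165 and 84 in Tregs, 4.54-fold lower (log2 -2.18, adjusted p = 3.73e-05). *Fasl* (chr1:161780689-161788495, minus strand), the death ligand of cytotoxic and activated T cells, was at 408 and 386 in Tconvs and at 93 and 106 in Tregs. It was 3.85-fold lower in Tregs (log2 -1.95, adjusted p = 3.41e-06). *Tnfsf8* (chr4:63831308-63861347, minus strand), encoding CD30L, was at 1446 and 1082 in Tconvs and at 529 and 522 in Tregs, 2.37-fold lower (log2 -1.24, adjusted p = 1.51e-05). These 4 ligands thus formed the Tconv-high group, with every control Treg library below every control Tconv library.

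The other 4 were higher in Tregs by close to the same factor. *Tnfsf10* (chr3:27317028-27342427, plus strand), encoding TRAIL, was at 828 and 890 in control Tconvs and at 1961 and 2028 in control Tregs, 2.32-fold higher (log2 1.21, adjusted p = 4.63e-06). *Lta* (chr17:35203165-35205351, minus strand), encoding the secreted lymphotoxin subunit, was at 274 and 277 in Tconvs and at 641 and 596 in Tregs, 2.22-fold higher (log2 1.15, adjusted p = 0.000217). *Tnfsf11* (chr14:78277445-78308043, minus strand) encodes RANKL, a survival ligand of dendritic cells and the main inducer of osteoclasts. It was at 353 and 218 in Tconvs and at 622 and 596 in Tregs, 2.17-fold higher (log2 1.12, adjusted p = 0.00161). *Tnf* (chr17:35199381-35202007, minus strand), the inflammatory cytokine itself, was at 422 and 335 in Tconvs and at 811 and 824 in Tregs, 2.16-fold higher (log2 1.11, adjusted p = 0.0104). Without the second control Tconv library, neither *Tnf* (log2 0.95, adjusted p = 0.06) nor *Tnfsf11* (log2 0.78, adjusted p = 0.038) was called, nor was *Tnf* with no minimum value (adjusted p = 0.12). Macrophages transcribe *Tnf* too, and the summed level of 8 macrophage or monocyte markers was 1688 and 1779 in control Tconvs and 3600 in each control Treg library. Of the 7 tested, 5 were called higher in control Tregs and 0 lower, by limma and by limma-voom. Among them *Adgre1* was at 41 and 40 against 258 and 272, *C1qa* at 111 and 187 against 675 and 587, and *Csf1r* at 449 and 417 against 1500 and 1205. The part of these cells, which the study depleted before the sort, in the ligand values was not tested.

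*Lta*, *Tnf* and *Ltb* lie next to each other on chromosome 17, with 1158 bases between *Lta* and *Tnf* and 3061 between *Tnf* and *Ltb*. *Lta* and *Tnf* differed between the subsets and *Ltb* did not detectably, at 14911 and 14778 in control Tconvs and at 16280 and 15325 in control Tregs (log2 0.09, interval -0.16 to 0.33, adjusted p = 0.551). *Cd70* and *Tnfsf14* are also neighbours, 39715 bases apart, and *Tnfsf14* was well expressed in Tconvs where *Cd70* was near the floor.

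The response to the transgene was then read in Tconvs. Of the 9 tested ligands, 1 was called higher and 0 lower, where 4.07% of all genes were called higher, 0.577% lower and 4.65% in either direction. At any fold, 2 ligands had an adjusted p under 0.05, beside 8.81% of all genes, and 4 an unadjusted p under 0.05, beside 19.1%. With limma-voom on the recovered reads, 2 were called higher and 0 lower, where 6.73% of all genes were called in either direction. At any fold, 4 had an adjusted p under 0.05 with limma-voom, and the share over all genes at that cut was not counted. The CD70Tg and control libraries did not overlap for 6 of the 9 ligands, against 45.1% of all genes. The median log2 fold change of the 9 was 0.15, beside 0.01 over all genes.

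*Fasl*, whose promoter is printed above, was the called ligand. It stood at 408 and 386 in control and at 784 and 868 in CD70Tg Tconvs (397 ± 15.6 and 826 ± 59.4, SD, n = 2), 2.07-fold higher (log2 1.05, SE 0.22, adjusted p = 0.00544). The groups did not overlap. The call rested on few libraries, since the adjusted p was 0.064 without the second control Tconv library (log2 1.01) and 0.07 without the second CD70Tg one (log2 0.97). *Fasl* is a gene of CD8+ T cells too, and the summed level of *Cd8a* and *Cd8b1* moved with it, from 720 and 681 to 1563 and 1590 in Tconvs. *Cd8a* rose from 17 and 28 to 508 and 608 (log2 4.38, adjusted p = 9.81e-07), while *Cd8b1* was at 703 and 653 against 1055 and 982. The NK cell markers, 4 of 4 in the table, moved the other way, from 417 and 444 to 81 and 88 in sum, mostly through *Klrb1c*, and *Ncr1* was at or below 2 in every library. CD8+ and NK cells had been depleted with antibodies to CD8β and CD49b before the sort of CD3+ CD4+ cells, and their part in the *Fasl* values was not tested. In bulk RNA, more cells with a transcript and more transcript per cell cannot be told apart.

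*Tnfsf10* lay just under the fold threshold in Tconvs. It was at 828 and 890 in control and at 1502 and 1937 in CD70Tg Tconvs, 1.98-fold higher (log2 0.99, SE 0.14, interval 0.68 to 1.29, adjusted p = 0.000187). All CD70Tg libraries lay above all control libraries, and over all alternatives its log2 fold change ran from 0.80 to 1.17 with an adjusted p of at most 0.025. *Tnfsf8* was at 1446 and 1082 against 1824 and 1783, with no overlap, and had a log2 fold change of 0.53 (interval 0.18 to 0.87, adjusted p = 0.0574), short of the threshold. Its adjusted p was 0.018 with limma-voom and 0.025 without the first control Tconv library. *Cd40lg* was at 2708 and 2771 against 2000 and 2007, also with no overlap, with a log2 fold change of -0.45 (interval -0.85 to -0.05, adjusted p = 0.188, and 0.0075 with limma-voom). The 8 macrophage or monocyte markers summed to 1688 and 1779 in control and to 1269 and 1671 in CD70Tg Tconvs. *Cd68* rose from 79 and 51 to 245 and 306 (log2 2.02, limma adjusted p = 0.000108). *Itgam* fell from 178 and 166 to 93 and 80 (log2 -0.95, limma adjusted p = 0.0269). The part of these cells in the ligand values was not tested.

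The 5 remaining ligands showed no detectable change in Tconvs. *Ltb* was at 16918 and 16095 in CD70Tg Tconvs, just above the control libraries (log2 0.15, interval -0.09 to 0.40, adjusted p = 0.557), and *Lta* at 294 and 353 (log2 0.22, interval -0.20 to 0.65, adjusted p = 0.639). *Tnf* was at 222 and 652 in CD70Tg Tconvs, on either side of both control libraries (log2 0.02, interval -0.66 to 0.70, adjusted p = 0.987). *Tnfsf11* was at 185 and 266 (log2 -0.32, interval -0.84 to 0.21), and *Tnfsf14* at 384 and 617 (log2 -0.18, interval -0.85 to 0.48). The spread of the CD70Tg Tconv libraries was widest for *Tnf* relative to the mean, with 437 ± 304 (SD, n = 2), and its log2 fold change was 0.79 without the first of them (adjusted p = 0.019) and -0.75 without the second (adjusted p = 0.068).

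In Tregs, 0 ligands were called higher and 1 was called lower, where 2.53% of all genes were called higher, 1.08% lower and 3.6% in either direction. At any fold, 2 ligands had an adjusted p under 0.05, beside 7.4% of all genes, and 5 an unadjusted p under 0.05, beside 21.6%. With limma-voom on the recovered reads, 0 were called, where 1.36% of all genes were. The libraries of the genotypes did not overlap for 7 of the 9 ligands, against 53.7% of all genes. The median log2 fold change of the 9 was -0.42, beside -0.05 over all genes.

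*Cd40lg* was the called ligand. In Tregs it stood at 335 and 395 in control and at 115 and 185 in CD70Tg libraries, 2.44-fold lower (log2 -1.29, SE 0.19, interval -1.69 to -0.89, adjusted p = 0.000453). These values rest on 69 and 90 reads in control and 11 and 34 in CD70Tg libraries. The groups did not overlap, but the size of the change leaned on the shallowest library, the first CD70Tg one. Without it the log2 fold change was -0.96 (adjusted p = 0.0079), under the fold threshold, and with limma-voom on the recovered reads it was -1.21 (adjusted p = 0.077).

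*Ltb* was higher in CD70Tg Tregs, by less than the fold threshold. It stood at 16280 and 15325 in control and at 23342 and 23880 in CD70Tg Tregs (15800 ± 675 and 23610 ± 380, SD, n = 2), 1.49-fold higher (log2 0.58, SE 0.12, interval 0.33 to 0.82, adjusted p = 0.00574). Every CD70Tg Treg library lay above the other 6 libraries. The adjusted p was 0.050 without the first control Treg library, 0.078 without the second, 0.057 without the first CD70Tg Treg library and 0.062 without the second. The log2 fold change was 0.54 to 0.62 over all alternatives. B cells transcribe *Ltb* as well, and the summed level of 6 B cell markers was 254 and 384 in control and 494 and 432 in CD70Tg Tregs, against 184 and 160 in control and 70 and 92 in CD70Tg Tconvs. Only 2 of these markers were tested, and 0 had an adjusted p under 0.05 with the transgene in Tregs, by limma or limma-voom. The part of B cells in the *Ltb* values was not tested.

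The 4 ligands that were higher in control Tregs did not pass the test of the transgene in Tregs. *Tnfsf11* was at 622 and 596 in control and at 387 and 321 in CD70Tg Tregs, with no overlap (log2 -0.78, SE 0.25, interval -1.30 to -0.26, adjusted p = 0.0683). *Tnf* was at 811 and 824 against 586 and 501 (log2 -0.59, interval -1.27 to 0.09, adjusted p = 0.314). *Lta* was at 641 and 596 against 398 and 533 (log2 -0.42, interval -0.84 to 0.00, adjusted p = 0.236). For all 3 the CD70Tg libraries lay below both control libraries. Fitted on the 4 Treg libraries alone, the adjusted p was 0.0093 for *Tnfsf11* and 0.017 for *Tnf*. Leaving out 1 Tconv library gave 0.040 to 0.046 for *Tnfsf11*, and leaving out the first or the second CD70Tg Tconv library gave 0.038 and 0.046 for *Tnf*. *Tnfsf10*, the other one, was at 1961 and 2028 against 1944 and 2344, with overlap (log2 0.10, interval -0.20 to 0.40, adjusted p = 0.754). Markers of myeloid cells moved in both directions in these libraries. The summed level of the 8 macrophage or monocyte markers was 3431 and 3321 in CD70Tg Tregs, with *C1qa* at 335 and 365, *Csf1r* at 930 and 762 (log2 -0.67, adjusted p = 0.0293) and *Itgam* at 377 and 381 against 146 and 198 (log2 1.13, adjusted p = 0.0129). The 4 neutrophil markers summed to 10 and 32 in control and to 243 and 203 in CD70Tg Tregs, with *S100a9* at 0 and 5 against 95 and 104, and *Ly6g* at 0 in 3 of these 4 libraries. Per the study's methods, an anti-GR1 antibody was used to deplete granulocytes before CD3+ CD4+ cells were sorted. The part of these cells in the ligand values was not tested.

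The 3 remaining Tconv-high ligands did not pass it either. *Fasl* was at 93 and 106 in control and at 168 and 131 in CD70Tg Tregs, with no overlap (log2 0.56, interval 0.08 to 1.03, adjusted p = 0.152), from 16 to 24 reads a library. The summed level of *Cd8a* and *Cd8b1* was 317 and 417 in control and 660 and 631 in CD70Tg Tregs, and its part in the *Fasl* values was not tested here either. *Tnfsf8* was at 529 and 522 against 366 and 446, with no overlap (log2 -0.38, interval -0.72 to -0.03, adjusted p = 0.193). *Tnfsf14* was at 165 and 84 against 84 and 77 (log2 -0.53, interval -1.19 to 0.14, adjusted p = 0.363).

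**Figure D3:**
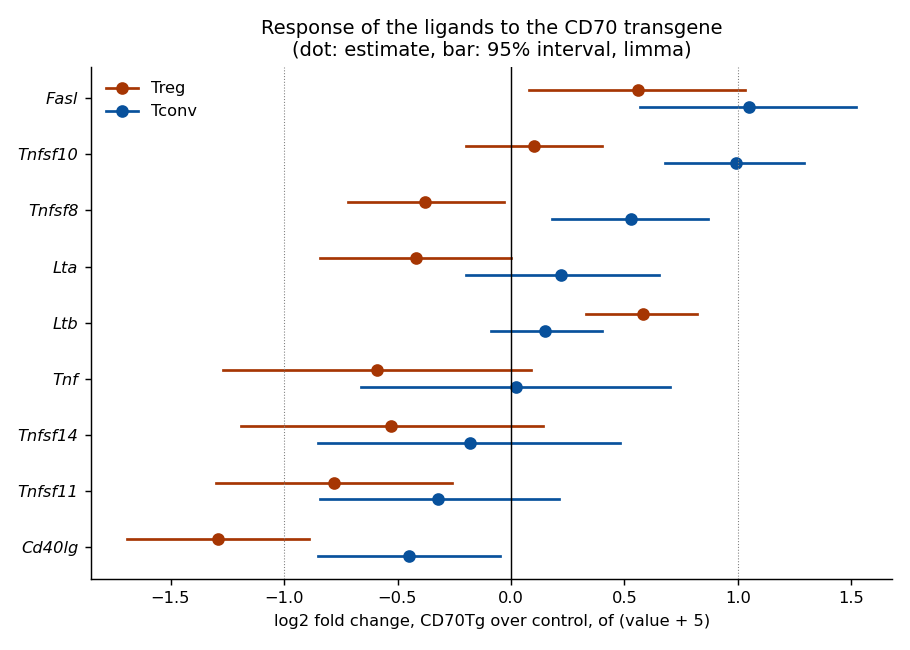
Log2 fold change of CD70Tg over control on the scale of log2(value + 5), for the 9 tested ligands in Tregs and Tconvs, with dots for limma's estimates, bars for their 95% intervals and dotted lines at the fold threshold of 1. Fasl in Tconvs (1.05) lies past the upper line and Cd40lg in Tregs (-1.29) past the lower one, while the other estimates lie between the lines.

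The responses of the subsets were compared directly, as the difference between the log2 fold change in Tregs and that in Tconvs. Past the fold threshold, 0 of the 9 ligands were called, where 0.148% of all genes were called higher, 0.733% lower and 0.882% in either direction, and 5 had an unadjusted p under 0.05, beside 10.7% of all genes. With limma-voom on the recovered reads 0 were called, where 0.414% of all genes were. At any fold, 1 ligand had an adjusted p under 0.05, beside 1.02% of all genes. This was *Tnfsf10*, whose response was lower in Tregs by 0.89 on the log2 scale (difference -0.89, SE 0.20, interval -1.32 to -0.46, adjusted p = 0.0443). Its adjusted p ran from 0.0059 to 0.37 over the alternatives. It was 0.057 with a pseudocount of 1, 0.059 with median-of-ratios and 0.056 with upper-quartile factors, 0.11 with limma-voom and 0.37 with no minimum value. Without 1 library it was 0.0059 (first CD70Tg Tconv library), and 0.050 to 0.26 without any of the other 7. *Tnfsf8* differed by -0.90 (interval -1.39 to -0.41, adjusted p = 0.0866), *Cd40lg* by -0.84 (interval -1.40 to -0.27, adjusted p = 0.2) and *Lta* by -0.64 (interval -1.24 to -0.04, adjusted p = 0.423), none past the threshold. *Ltb* differed by 0.43 (adjusted p = 0.329), *Fasl* by -0.49 (interval -1.16 to 0.18, adjusted p = 0.644), *Tnf* by -0.61 (adjusted p = 0.706) and *Tnfsf11* by -0.46 (adjusted p = 0.709). Hence neither the *Fasl* response in Tconvs nor the *Cd40lg* response in Tregs was shown to differ from that of the other subset. Without the second CD70Tg Treg library the *Cd40lg* difference was called (-1.17, adjusted p = 0.03), and without the first control Tconv library that of *Tnfsf8* was (-1.11, adjusted p = 0.029). Without the first CD70Tg Tconv library the differences of *Tnfsf10* (-1.07, adjusted p = 0.0059) and *Tnf* (-1.37, adjusted p = 0.01) were called.

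The difference between the subsets was also read within CD70Tg mice. Of the 9 ligands, 0 were called higher in Tregs and 4 called lower, where 12.3% of all genes were called higher, 4.94% lower and 17.2% in either direction. At any fold, 6 had an adjusted p under 0.05, beside 42.7% of all genes, and 8 an unadjusted one, beside 50.5%. With limma-voom, too, 0 were called higher and 4 lower, where 16.4% of all genes were called. The libraries of the subsets did not overlap for 8 of the 9, against 69.2% of all genes, and the median log2 difference was 0.32, beside -0.02 over all genes.

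The 4 called ligands were the Tconv-high ones of control mice. *Cd40lg* was 13.3-fold lower in CD70Tg Tregs than in CD70Tg Tconvs (log2 -3.73, adjusted p = 4.86e-10), *Tnfsf14* 5.76-fold lower (log2 -2.53, adjusted p = 1.15e-05), *Fasl* 5.41-fold lower (log2 -2.44, adjusted p = 3.85e-07) and *Tnfsf8* 4.42-fold lower (log2 -2.14, adjusted p = 5.45e-08). The 4 that were Treg-high in control mice had smaller differences, of 0.66 for *Tnfsf11* (adjusted p = 0.0424), 0.51 for *Lta* (adjusted p = 0.0504), 0.50 for *Tnf* (adjusted p = 0.227) and 0.32 for *Tnfsf10* (adjusted p = 0.0791). *Ltb* stood 0.52 higher in Tregs (adjusted p = 0.00209). Whether a difference between the subsets changed with the genotype is the same test as that of the responses above, in which 0 ligands were called and only *Tnfsf10* had an adjusted p under 0.05, lost under the alternatives named there.

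**Figure D4:**
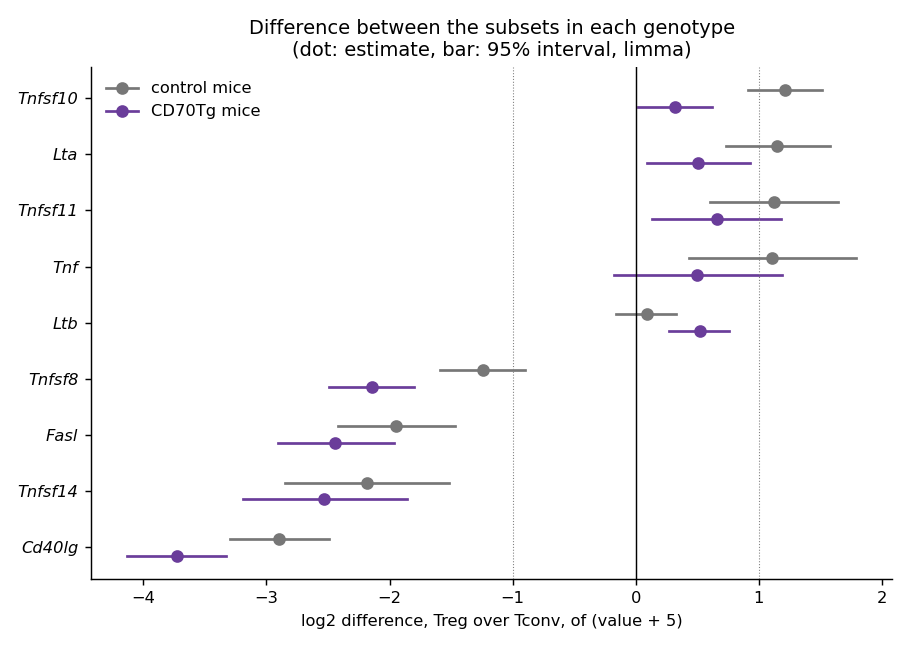
Log2 difference of Tregs over Tconvs on the scale of log2(value + 5), for the 9 tested ligands in control and in CD70Tg mice, with dots for limma's estimates, bars for their 95% intervals and dotted lines at 1 and -1. Cd40lg, Tnfsf14, Fasl and Tnfsf8 lie below -1 in both genotypes, while Tnfsf10, Lta, Tnfsf11 and Tnf lie above 1 in control mice and between 0 and 1 in CD70Tg mice.

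The receptors of the ligands were counted next. Of 13 receptors in the table, 9 were tested. In Tconvs 1 was called higher and 0 lower with the transgene, beside 4.65% of all genes in either direction, and in Tregs 0 were called, beside 3.6%, with 3 at an unadjusted p under 0.05 in each subset, beside 21.6% of all genes in Tregs and 19.1% in Tconvs. Limma-voom gave 0 calls in Tregs and in Tconvs also called *Tnfrsf10b* lower (log2 -1.06, adjusted p = 0.0118). *Tnfrsf1b*, encoding the TNF receptor TNFR2 that expands Tregs, was the called one. It was at 3155 and 2145 in control and at 5359 and 6367 in CD70Tg Tconvs, with no overlap, 2.24-fold higher (log2 1.17, adjusted p = 6.19e-05). In Tregs it was at 17474 and 18052 against 23384 and 23494 (log2 0.40, interval 0.08 to 0.72, adjusted p = 0.125). Between the subsets of control mice, 2 of the 9 were called higher in Tregs and 0 lower, by limma and by limma-voom, which is near the 14.7% of all genes called higher. These were *Tnfrsf1b* (log2 2.77) and *Tnfrsf8*, encoding CD30, the receptor of CD30L, at 66 and 21 in control Tconvs and at 859 and 942 in control Tregs (log2 4.40). For CD30L and CD30 the ligand was thus higher in Tconvs and the receptor in Tregs, whereas *Tnf* and *Tnfrsf1b* were both higher in Tregs. *Tnfrsf1a*, encoding the other TNF receptor, went the other way, at 1972 and 1608 in control Tconvs and at 1063 and 994 in control Tregs. Its log2 difference was -0.79 (adjusted p = 0.000294 in limma), short of the fold threshold. In CD70Tg mice 3 receptors were called higher in Tregs, beside 12.3% of all genes. These were *Tnfrsf1b*, *Tnfrsf8* and *Tnfrsf10b*, the last encoding the TRAIL receptor, at 52 and 44 in Tconvs and 168 and 142 in Tregs (log2 1.59).

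**Figure D5:**
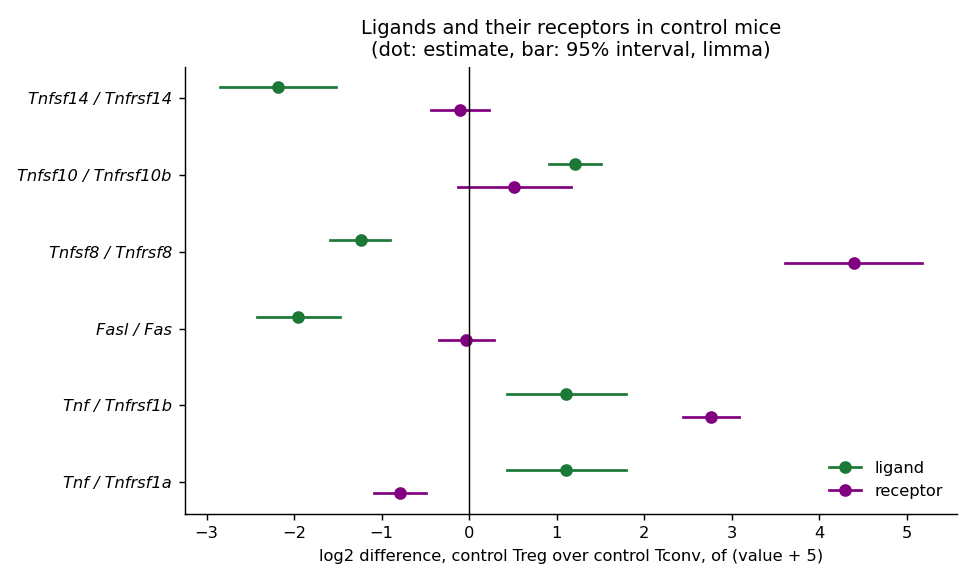
Log2 difference of control Tregs over control Tconvs on the scale of log2(value + 5), for 6 pairs of a ligand and a receptor, with dots for limma's estimates and bars for their 95% intervals. Tnfsf8 (-1.24) and its receptor Tnfrsf8 (4.40) lie on opposite sides of 0. Tnf (1.11) and Tnfrsf1b (2.77) lie on the same side, and Tnfrsf1a (-0.79) lies on the other.

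Other ligands of the family were scarce. Of 8 in the table, 1 reached the minimum value, *Tnfsf9* (encoding 4-1BBL), 38240 bases from *Cd70*. It was at 78 and 40 in control and 90 and 113 in CD70Tg Tconvs, and at 34 and 88 in control and 74 and 66 in CD70Tg Tregs. It was called in 0 of the 5 comparisons, by limma or limma-voom, and 0 had an unadjusted p under 0.05. Of 11 genes that act on the shedding of these ligands or on the turnover of their mRNA, all 11 were tested, and 0 were called with the transgene in either subset, by limma or by limma-voom, where limma called 3.6% of all genes in Tregs and 4.65% in Tconvs. At an unadjusted p under 0.05 there were 3 in Tregs and 5 in Tconvs, beside 21.6% and 19.1% of all genes. With an adjusted p under 0.05 in limma at any fold, 1 was higher and 1 lower in Tregs, beside 7.4% of all genes. In Tconvs there were 0, beside 8.81%. Limma-voom gave 0 in Tregs and 4 in Tconvs at that cut, for which the share over all genes was not counted. In control mice 3 of the 11 were called higher in Tregs and 0 lower, by either tool, beside the same 14.7% of all genes called higher. They were *Zc3h12a* (log2 1.43), encoding the RNase Regnase-1, *Rc3h2* (log2 1.06), encoding Roquin-2, and *Zfp36l1* (log2 1.03), which encodes a protein that binds AU-rich elements, such as that of *Tnf*. In CD70Tg mice 1 was called higher in Tregs, *Zfp36l1* (log2 1.05), and 0 lower, by either tool, beside 12.3% of all genes called higher.

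The genes whose values ran most alike to those of the 2 ligands called with the transgene were listed over the 8 libraries, as a description. For *Cd40lg* they were *4933440N22Rik* (Pearson r = 0.997), *Sept6* (0.996) and *Trbj2-3* (0.996), and for *Fasl* they were *Cd8b1* (0.992), *Mfsd6* (0.991) and *Pde7a* (0.990). The 8 points fall into 4 groups of 2, so that they share the subset, the genotype and the depth that goes with the subset. *Cd8b1*, the gene most like *Fasl*, is one of the CD8+ T cell markers given above.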

How the data were processed

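RNA of sorted Tregs and Tconvs was sequenced by the authors as paired ends after NuGEN Ovation SoLo library preparation, trimmed with Trimmomatic 0.36, mapped to mm10 with STAR 2.5.3 and counted with HTSeq 0.9.1. The deposited values, treated as a score, are HTSeq counts that the authors put on a scale of 20 M reads per library and rounded up, and so are not raw counts. There were 2 libraries in each of 4 groups, with 1.91 to 33.28 M reads recovered from the size of the lowest step. In the deepest library, where 1 read is worth less than 1, that size was estimated from the frequency of low values. All 10 genes, the lists and the tests were chosen with earlier results of these data known. Of the 52636 rows, 4131 with clone-derived names were left out, a choice made after values were seen. A name on more than 1 row (97 names) was given to the row with the largest total.

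The 12816 genes that reached 60 in 2 or more libraries were tested with limma 3.58.1 in R 4.3.3 on log2(value + 5), with a trend in the prior variance (prior degrees of freedom 12.3), 1 coefficient a group and Benjamini-Hochberg adjustment within each contrast. Log2(value + 5) understates the change of low genes. A call needed an adjusted p under 0.05 together with a log2 fold change over 1 or under -1. The steps were tested on simulated data. All 10 ligands are named, the genes of the other lists where called in any comparison, and the 3 genes most correlated with each ligand called with the transgene. *Cd27*, *Tnfrsf1a*, *Tnfsf9* and cell type markers are named besides. Exon lengths and positions are from GENCODE M21, which holds 99.6% of the gene identifiers. The same fits were rerun with 1 or 20 as pseudocount, with no minimum value or with a mean over libraries of 60, with median-of-ratios or upper-quartile factors, with only the 4 libraries of a contrast, with limma-voom on recovered reads, without the fold threshold, and with each library left out in turn. The low values of the 6 libraries with a clear step were whole multiples of it for a median of 100.0% of values, once rounded up. The authors' own test was DESeq2 on raw counts, which were not used here.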

Additional observations from a re-analysis of the deposited data

Results flagged for a closer look

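*Tnfsf10* drew attention because the difference between its responses in Tregs and Tconvs had an adjusted p of 0.0443 in limma (log2 difference -0.89). It was higher in both CD70Tg Tconv libraries and overlapped with control in Tregs. *Tnfsf8* (log2 difference -0.90, adjusted p = 0.0866) and *Lta* (-0.64, adjusted p = 0.423) drew attention because every CD70Tg library lay above control in Tconvs and below control in Tregs. For these 2 the test of the difference was not passed with all libraries, and *Tnfsf8* passed it without the first control Tconv library (-1.11, adjusted p = 0.029).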

How the results depend on the processing

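Of 756 values of the ligands under the alternatives, 725 kept their direction and call, 11 changed sign, 7 lost a call and 13 gained one, and 27 of 45 pairs of a ligand and a comparison had no such change. Genes called were 324 higher and 138 lower in Tregs, 522 and 74 in Tconvs, 19 and 94 for the difference between the responses, 1887 and 568 between the subsets of control mice, and 1577 and 633 in CD70Tg mice. Counts that moved by over 1.5 times were as follows, and the cause was not tested. With a pseudocount of 20, 29 genes were called higher for the difference. With no minimum value, 150 were called higher and 52 lower in Tregs, 259 and 24 in Tconvs, and 0 in either direction for the difference by limma, where 2249 of the 26467 genes then tested had an unadjusted p under 0.05. With limma-voom, 139 and 35 were called in Tregs (ligands 0), 158 lower in Tconvs (ligands 2), and 8 and 45 for the difference. Without the fold threshold, fewer conditions gave 505 and 443 in Tregs (ligands 2), 874 and 255 in Tconvs (ligands 2), 1 ligand for the difference, 3518 and 2357 between the subsets of control mice and 2894 and 2573 in CD70Tg mice.

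Leaving out 1 library at a time gave 159 to 325 genes higher and 40 to 184 lower in Tregs (ligands 0 to 1), 255 to 667 and 42 to 101 in Tconvs (ligands 0 to 2), 7 to 27 and 46 to 185 for the difference (ligands 0 to 2), 1485 to 1895 and 434 to 579 between the subsets of control mice (ligands 6 to 8), and 1275 to 1600 and 461 to 695 in CD70Tg mice (ligands 4 to 5). In Tregs the lowest counts were without the first CD70Tg (159 higher) and the first control library (40 lower). In Tconvs they were without the second CD70Tg (255 higher) and the first control library (42 lower). For the difference they were without the first CD70Tg Treg (7 higher) and the second CD70Tg Tconv library (46 lower), and 185 were lower without the first CD70Tg Tconv library. A lone library was then assumed to vary like the other groups.

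Signs changed only for ligands that were not called in that comparison. *Tnf* in Tconvs was at -0.02 with median-of-ratios and with upper-quartile factors, and ran from -0.75 to 0.79 without 1 library. Ranges across 0 without 1 library were also found for its difference between the responses (-1.37 to 0.16, called at -1.37 without the first CD70Tg Tconv library) and between the subsets of CD70Tg mice (-0.26 to 1.27, called at 1.27 without the second CD70Tg Tconv library). The same held for *Tnfsf11* (-0.66 to 0.03) and *Tnfsf14* (-0.52 to 0.15) in Tconvs, for the difference of *Tnfsf14* (-0.81 to 0.12), and for *Tnfsf10* in Tregs (-0.04 to 0.23). The fold threshold of 1 was passed by *Tnfsf10* in Tconvs with limma-voom (1.05) and without the first CD70Tg (1.17) or the second control library (1.04).

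No paired analysis was possible because the columns of the table carry no replicate numbers. With 1.91 to 4.57 M reads, *Fasl*, *Tnfsf14* and *Cd40lg* in Tregs rest on few reads. *Cd70* lay under the minimum value in all 8 libraries. With 2 libraries a group, a change of less than the intervals given above could not be told from 0.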
